A study of Mus musculus with 2 samples.

Results

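The 84 genes described here encode metalloproteases that cut extracellular matrix and cell surface proteins, and the inhibitors of these enzymes. They were chosen by symbol from the 24675 features with 1 gene symbol, among 25429 features in all: every matrix metalloproteinase (Mmp, 22 genes), every ADAM (34 genes), ADAMTS (18 genes) and ADAMTS-like gene (5 genes), and the inhibitors Timp1, Timp2, Timp3, Timp4 and Reck. The RNA came from tissue cut by laser microdissection from C57Bl/6 mouse embryos at embryonic day 10.5 and was hybridised to Affymetrix Mouse Gene 2.0 ST arrays. Ventral tissue was taken from under the dorsal aorta, and dorsal tissue from between the roof of this vessel and the notochord of the same embryos, whose number the labels do not give. The study concerns the surroundings of the aorta in which blood stem cells arise, and the comparison made here asks which proteases and inhibitors differ between the 2 sides of the vessel. Each tissue has 1 array, labelled biological replicate 4 in both cases. Differences therefore carry neither an error nor a test, and every count below is by size alone.

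Matrix metalloproteinases are zinc enzymes, made as inactive proenzymes, that degrade collagens, laminins and other matrix proteins. Most are secreted, and the membrane-type members stay on the cell surface, where Mmp14 also activates proMmp2 together with Timp2. ADAMs are membrane-bound sheddases that release the outer parts of growth factors, Notch receptors and adhesion proteins, whereas ADAMTS enzymes are secreted and act on proteoglycans such as versican, on procollagens and on other matrix proteins. The TIMPs bind the active site of metalloproteinases, and Reck is a membrane-anchored inhibitor that embryonic vessels require. Around the embryonic aorta, matrix remodelling and Notch shedding accompany vessel growth and the emergence of blood cells.

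Values are given as log2 expression, as deposited. A level was called above background when it exceeded 3.92, the 95th percentile of both arrays' values for 1360 odorant and pheromone receptor genes (olfactory and vomeronasal), and the 99th percentile of the same genes, 5.48, served as a stricter mark. Of the 1360 receptor genes, 82 (6.03%) themselves passed 3.92 on at least 1 array, so a level just above this mark may also be background. Levels of different genes come from different probes and are not set against each other. A gene was kept for counting when its higher value reached 3.10, the median gene's average over the arrays. A kept gene is called ventral-high or dorsal-high when its levels differ by 2-fold or more. Where the lower array was at background, the fold is a bound against 3.92, written as "at least". Fewer cells of a type and less RNA per cell cannot be told apart in such bulk tissue.

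The labels of the 2 pieces went with the markers of their positions. The 5 markers listed for the ventral side, which include Wt1 and Tcf21 of coelomic epithelium and visceral mesenchyme, were all above background in ventral tissue and all at background in dorsal tissue. Of 7 measured sclerotome and notochord markers, 5 were dorsal-high, Pax9 and Shh among them. Markers of other cell types also differed. Of 7 endothelial markers 5 were kept, and 3 of these, Cdh5, Emcn and Kdr, were ventral-high, beside 9.44% of all genes kept. Pecam1 was within 2-fold, and Tek, Tie1 and Esam were at background on both arrays. Of 6 smooth muscle and pericyte markers 5 were kept, and 3 of these, Acta2, Cnn1 and Rgs5, were ventral-high, beside the same 9.44%. Tagln was within 2-fold, and Myh11 and Pdgfrb were at background on both arrays. Of 5 macrophage markers none was 2-fold apart, and Ptprc, Csf1r, Adgre1 and Mrc1 were at background on both arrays. Single markers of further cell types went either way. Neuronal Nefm was 6.67-fold higher in ventral tissue. Neuronal Tubb3, erythroid Klf1 and Ttr of liver and gut were 2.21-fold, 2.14-fold and 5.93-fold higher in dorsal tissue. The other markers listed with them did not differ in this way. Erythroid Hbb-y, Hbb-bh1 and Hba-x were above background on both arrays and within 2-fold. Gata1, Sox2, Elavl3, Alb, Afp, Foxa2 and Epcam were at background on both arrays. The part of these cell types in the differences below was not tested.

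Most of these genes gave no signal over background in either tissue. Of 84 members, 15 exceeded the mark on at least 1 array, against 28.7% of all 24675 genes. In ventral tissue 12 members were above the mark, against 23.8% of all genes, and 11 were above it in dorsal tissue, against 24.2%. A total of 8 were above it on both arrays. Only 4 members, Mmp14, Mmp16, Adam4 and Adam10, passed the stricter mark on at least 1 array. Another 49 members stayed below the floor for counting, 26 of them ADAMs.

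Of the 35 members kept, 3 were ventral-high, as were 9.44% of all 13982 genes kept, and 0 were dorsal-high, as were 4.88% of all genes kept. Counted among genes above background on at least 1 array, these were 3 and 0 of 15 members, beside 17.7% of 7092 genes that were ventral-high and 8.46% that were dorsal-high. The ventral-high share of the members was thus near that of all genes. The 3 were Mmp14, Mmp16 and Adam4. The median difference over the members kept, ventral minus dorsal, was -0.084 on the log2 scale, close to -0.12 over all genes kept.

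**Figure D1:**
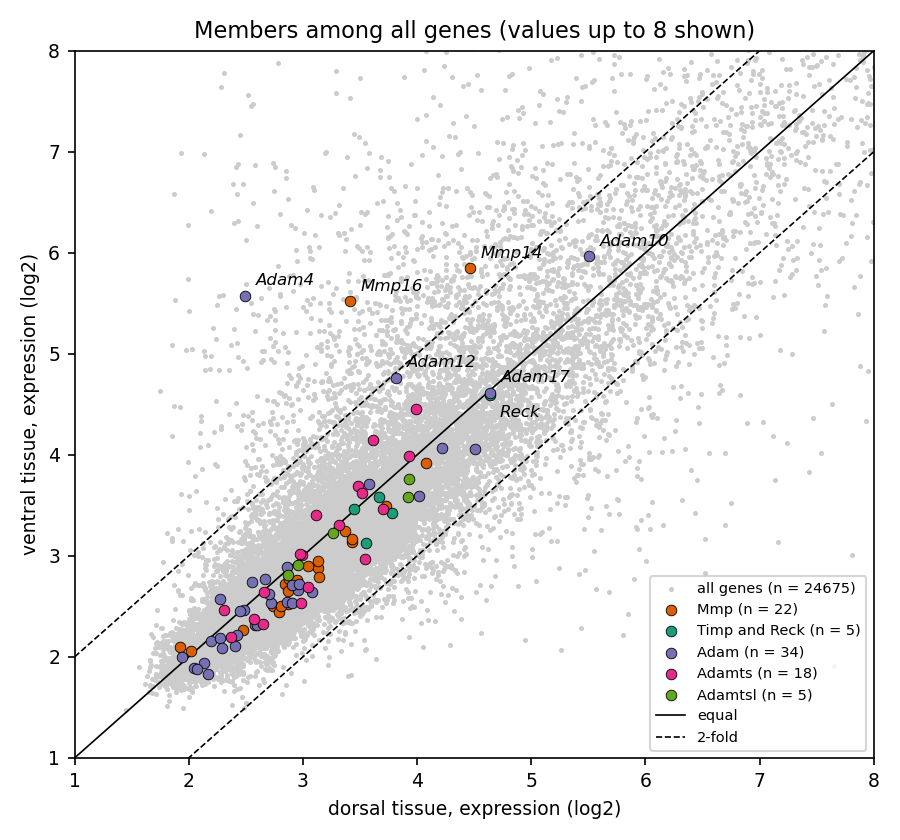
Expression in ventral tissue (vertical axis, log2) against dorsal tissue (horizontal axis, log2), 1 point per gene, with all 24675 genes in grey and the 84 members coloured by family; the dashed lines mark a 2-fold difference, and values above 8 are not shown. Adam4, Mmp16 and Mmp14 lie above the upper dashed line, Adam12 lies just below it, and no member lies under the lower one.

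Of 5 membrane-type metalloproteinases measured, 2 were above background on at least 1 array. Both were ventral-high, as were 17.7% of 7092 genes above background. Mmp16 passed the mark through its ventral level alone, so its direction follows from that filter. Only Mmp14 was above the mark on both arrays. Mmp14, the collagenolytic enzyme of invading and sprouting cells, was at 5.85 in ventral and 4.46 in dorsal tissue. Both levels were above background, and the ventral level was 2.61-fold higher. Mmp16, a close relative that cuts collagen III and fibronectin, was at 5.52 in ventral and 3.41 in dorsal tissue. Its dorsal level was at background, which makes the ventral excess at least 3.03-fold, and the measured difference was 2.11 on the log2 scale. The other 3 membrane-type members measured were at background on both arrays. Mmp17, which is held by a lipid anchor, was at 3.14 in ventral and 3.43 in dorsal tissue. Mmp24, known from neurons, was at 3.17 in ventral and 3.43 in dorsal tissue. For these and for Mmp25 a difference was not detectable at this signal, and Mmp15 was not analysed here.

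The secreted and other metalloproteinases outside the membrane-type group were nearly all at background. Of 17 measured, Mmp23 alone exceeded the mark, and only in dorsal tissue, beside 6.03% of the receptor genes on at least 1 array. Mmp23, an unusual member without the hemopexin domain, was at 3.92 in ventral tissue, just under the mark, and at 4.08 in dorsal tissue. The gelatinases, which degrade basement membrane collagen, were at background: Mmp2 was at 3.49 in ventral and 3.73 in dorsal tissue. Mmp9 was at 2.79 in ventral and 3.14 in dorsal tissue. Mmp11, which is activated inside the cell by furin, was at 3.25 in ventral and 3.37 in dorsal tissue. Differences in this group ran from -0.36 to 0.18 on the log2 scale, and 15 of the 17 were lower in ventral tissue. Over all genes, 15610 of 24675 were lower in ventral tissue, so small negative differences near background were the common case.

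The inhibitors were alike in showing no 2-fold difference, and Reck was the only 1 of 5 above background. Reck was at 4.60 in ventral and 4.63 in dorsal tissue, above the mark on both arrays, with a difference of -0.038 on the log2 scale. Timp1, an inducible TIMP, was at 3.13 in ventral and 3.55 in dorsal tissue. Timp2, the partner of Mmp14 in activating proMmp2, was at 3.59 in ventral and 3.67 in dorsal tissue. All TIMP levels lay under 3.92, so that neither presence nor a difference could be read from them. Timp3, which binds to the matrix and also inhibits ADAM enzymes, was at 3.42 in ventral and 3.78 in dorsal tissue. Timp4 was at 3.46 in ventral and 3.45 in dorsal tissue.

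**Figure D2:**
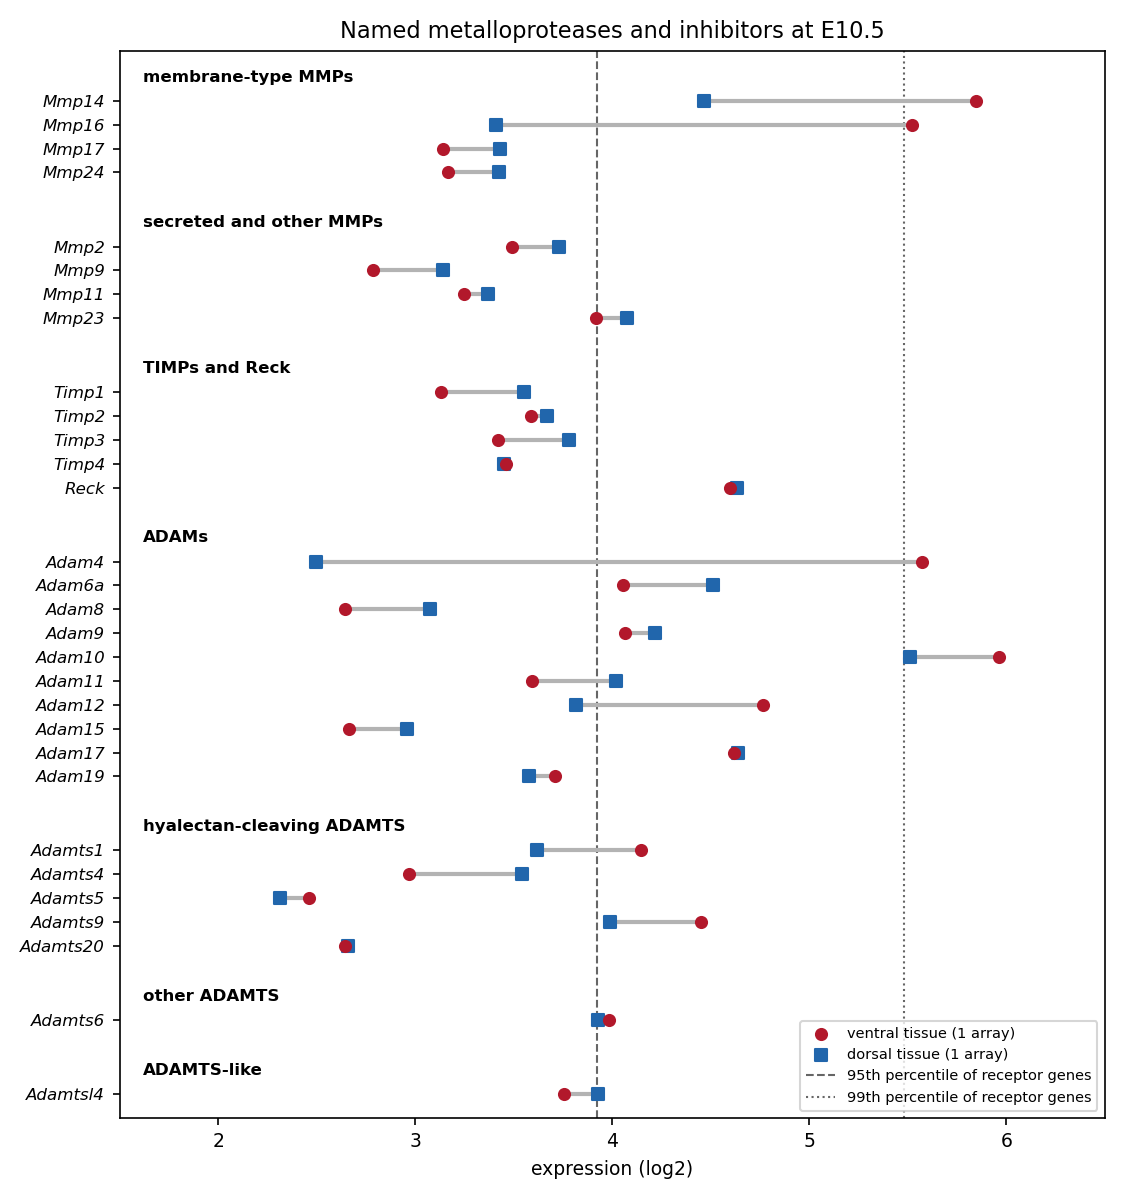
Expression (log2, horizontal axis) of the 30 members named in the text, grouped by role, with 1 array per tissue (circles ventral, squares dorsal, joined by a grey bar); dashed and dotted lines mark the 95th and 99th percentiles of the receptor genes, 3.92 and 5.48. Long bars are seen for Mmp14, Mmp16 and Adam4, while the points of Reck and Adam17 nearly coincide and all 4 TIMPs lie left of the dashed line.

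The broadly acting sheddases were present on both sides of the aorta at similar levels. Adam10, which starts Notch cleavage and sheds cadherins, was at 5.96 in ventral and 5.51 in dorsal tissue, above the stricter mark on both arrays. Adam17, which releases tumour necrosis factor and ligands of the EGF receptor, was at 4.62 in ventral and 4.64 in dorsal tissue. Neither was 2-fold apart, Adam10 being 1.37-fold higher in ventral tissue and Adam17 differing by -0.024 on the log2 scale. With quantile normalization of the 2 columns, the difference of Adam10 fell from 0.45 to 0.16 on the log2 scale. Adam9, another widely expressed sheddase, was at 4.06 in ventral and 4.21 in dorsal tissue. Adam12, a sheddase of mesenchyme and fusing myoblasts, was at 4.76 in ventral and 3.82 in dorsal tissue. It stood next to the threshold, with a measured difference of 0.95 and a bound of at least 1.80-fold, and passed 2-fold at 1.01 on the log2 scale when each column was centred on its median over the genes kept. Mmp14, at 1.38, was the member nearest to the threshold among those past it.

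Adam8, Adam15 and Adam19 were at background on both arrays. Adam8, of leukocytes, was at 2.64 in ventral and 3.08 in dorsal tissue. Adam15, of endothelium, was at 2.66 in ventral and 2.96 in dorsal tissue. Adam19, which acts in heart cushion development, was at 3.71 in ventral and 3.58 in dorsal tissue. These levels give no readable difference. Adam11, a non-catalytic member of neurons, passed the mark in dorsal tissue alone, at 3.59 in ventral and 4.02 in dorsal tissue.

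Among the ADAMs known mainly from testis and sperm, Adam4 and Adam6a exceeded background. Adam4 was at 5.57 in ventral and 2.49 in dorsal tissue, at least 3.15-fold higher in ventral tissue, with a measured difference of 3.08 on the log2 scale. The dorsal level was at background. Adam6a was above the mark on both arrays, at 4.05 in ventral and 4.51 in dorsal tissue, and its close copy Adam6b was at background, at 2.11 in ventral and 2.40 in dorsal tissue. ADAM genes of this kind come in related copies whose probes may share signal, so these values are uncertain. Beside Adam4, germ cell markers were mixed: Dppa3, which encodes a protein of primordial germ cells, was at 5.92 in ventral and 2.95 in dorsal tissue, while Ddx4, Dazl and Pou5f1 were at background on both arrays. The summed level of these 4 markers, on the linear scale, was 80.7 in ventral and 31.7 in dorsal tissue. Dppa3 alone raised the ventral sum, as Ddx4, Dazl and Pou5f1 were each slightly lower in ventral tissue. The part of germ cells in the Adam4 value was not tested.

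In the RefSeq annotation of GRCm38.p6, Adam4 lies within the span of Cox16, a gene for a cytochrome oxidase assembly factor, and of Gm20498, whose span reaches from Cox16 across Synj2bp. The 2 genes measured next to Adam4 on either side were also ventral-high. Gm4787 was at 7.46 in ventral and 2.55 in dorsal tissue, at least 11.6-fold higher in ventral tissue. Synj2bp, which encodes a mitochondrial outer membrane protein, was at 6.68 in ventral and 2.48 in dorsal tissue, at least 6.77-fold higher. Cox16 went the other way, at 4.39 in ventral and 6.05 in dorsal tissue. Adam21, the next member along the chromosome, was at background on both arrays, at 2.71 in ventral and 2.90 in dorsal tissue, so the 2 members in this stretch differed. Med6, a Mediator subunit gene beyond it, was 3.26-fold higher in ventral tissue. These neighbours were looked up after the value of Adam4 was seen, and the strand of the array signal at overlapping genes was not examined.

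**Figure D3:**
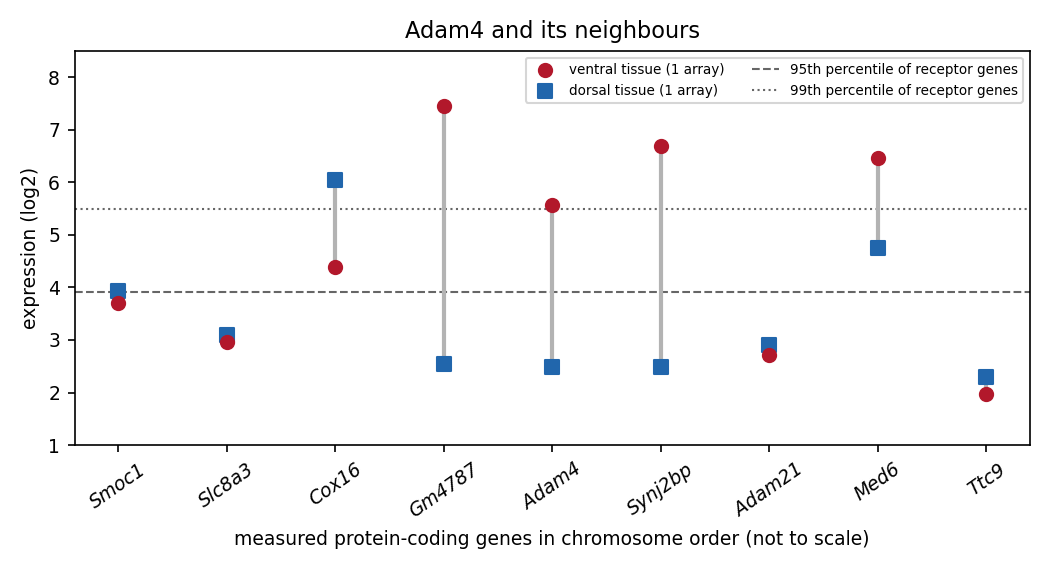
Expression (log2, vertical axis) of Adam4 and the 4 measured protein-coding genes on each side, in chromosome order and not to scale, with 1 array per tissue (circles ventral, squares dorsal); dashed and dotted lines mark the 95th and 99th percentiles of the receptor genes. Gm4787, Adam4 and Synj2bp are above both lines in ventral tissue and below both in dorsal tissue, while Cox16 is higher in dorsal tissue.

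Of the 7 measured ADAMTS enzymes that cut hyalectans, the family of versican and aggrecan, 2 were above background. Adamts9, a versican-cleaving enzyme of vessels and mesenchyme, was at 4.45 in ventral and 3.99 in dorsal tissue, above the mark on both arrays. Adamts1, which also cleaves versican and restrains vessel growth, was at 4.15 in ventral and 3.62 in dorsal tissue. Adamts9 was 1.38-fold higher in ventral tissue. The dorsal level of Adamts1 was at background, so that only a ventral excess of at least 1.17-fold can be given. Adamts4 was at 2.97 in ventral and 3.54 in dorsal tissue. Adamts5 was at 2.46 in ventral and 2.31 in dorsal tissue. Adamts20 was at 2.64 in ventral and 2.66 in dorsal tissue, and like the last pair it was at background on both arrays. The hyalectan versican itself, encoded by Vcan, was abundant, at 8.69 in ventral and 9.26 in dorsal tissue.

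The remaining ADAMTS and ADAMTS-like genes gave little signal. Adamts6 lay just above the mark on both arrays, at 3.98 in ventral and 3.93 in dorsal tissue. Adamtsl4, a fibrillin-binding protein without protease activity, lay at the mark in dorsal tissue, at 3.76 in ventral and 3.93 in dorsal tissue. The procollagen N-propeptidases Adamts3 and Adamts14 were at background on both arrays, and Adamts2 was not analysed here. Over the 18 ADAMTS genes the differences ran from -0.57 to 0.53, and over the 5 ADAMTS-like genes from -0.34 to -0.039.

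**Figure D4:**
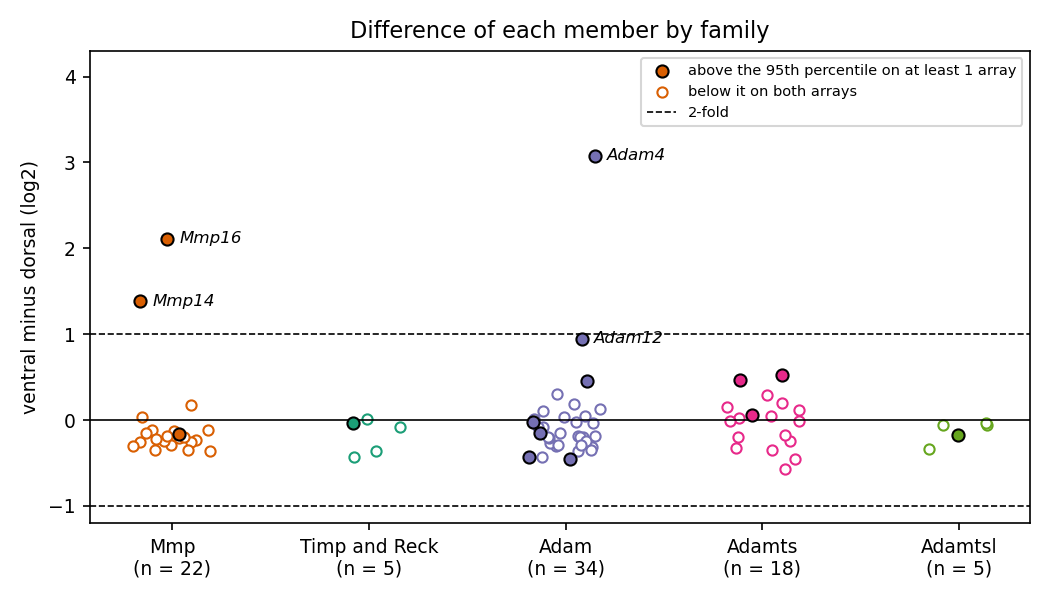
Ventral minus dorsal difference (log2, vertical axis) of each of the 84 members by family, with filled points for genes above 3.92 on at least 1 array, open points for genes at background on both, and dashed lines at 2-fold; points are spread sideways for legibility. Open points lie between -0.57 and 0.30, and the only points past 2-fold are Mmp14, Mmp16 and Adam4, all filled.

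Members that neighbour each other in the genome were mostly at background. Runs were defined as at least 3 members with at most 2 other protein-coding genes between each and the next. The longest run held 10 metalloproteinase genes, Mmp13, Mmp12, Mmp1b, Mmp3, Mmp1a, Mmp10, Mmp8, Mmp27, Mmp20 and Mmp7, and included the collagenases, stromelysins and matrilysin. None of the 10 was above background, with levels between 1.92 and 3.13 over both arrays. A run of 5 ADAM genes held Adam9, above background on both arrays, beside Adam18, Adam3, Adam5 and Adam32, which were at background. In 2 further runs of 4 ADAM genes each, none was above background. In total 1 of 23 members in runs and 14 of 61 outside them were above background, beside 28.7% of all genes and 6.03% of the receptor genes.

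Promoter windows from RefSeq, on GRCm38.p6, were found for 53 of 84 members. Among the 15 members above background, 9 had a window, and Mmp16, Adam4, Adam9, Adam11, Adam12 and Adamts6 had none. Each window spans 250 bases before to 50 after a transcription start, and the first start listed was used. Members above background had CpG-richer windows, with a median observed over expected CpG ratio of 0.68 in 9 genes, against 0.26 in 44 genes at background. Over all 18380 genes with a window, the medians were 0.79 above and 0.41 at background, the same order. The 10 genes of the metalloproteinase run stood at 0.078, and the other 34 members at background at 0.37.

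Short motifs were counted in the same windows. The TATA box was searched as TATAAA, the GC box as GGGCGG and the AP-1 site as TGAGTCA, each on both strands of the 300 bases. The 10 genes of the run are neighbours of 1 family, so their windows are not independent of each other. TATAAA occurred in 8 of 10 windows of the metalloproteinase run and in 5 of 34 windows of the other members at background. It occurred in 2 of 9 windows of members above background. Its share was 12.8% of all windows, 8.36% for genes above background and 14.6% for genes at background. GGGCGG occurred in 0 of 10 windows of the run, in 17 of 34 windows of the other members at background and in 7 of 9 windows of members above background. Its share was 45.8% of all windows, 63.0% for genes above background and 38.9% for genes at background. TGAGTCA occurred in 6 of 10 windows of the run, in 2 of 34 windows of the other members at background and in 0 of 9 windows of members above background. Its share was 4.79% of all windows, 2.94% for genes above background and 5.54% for genes at background. A match is a description of these letters and not of a bound site.

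Upstream sequences of 4 members are shown as examples, which do not stand for all members of their groups. The Mmp14 window had a CpG ratio of 0.43, under the median of 0.68 for members above background, and the Adam10 window 0.84. Adam6a, also above background, had a ratio of 0.073, with TATAAA and without GGGCGG. In the run, the windows of Mmp12 and Mmp27 held none of the 3 motifs. Mmp14 was higher in ventral tissue and Adam10 was above the stricter mark on both arrays, while Mmp13, a collagenase, and Mmp3, a stromelysin, belong to the run at background. Each is the 250 bases before the start on GRCm38.p6, plus strand, 5′ to 3′, and capitals mark the 3 motifs on either strand. They lie at chr14:54431348-54431597 for Mmp14, chr9:70678732-70678981 for Adam10, chr9:7272264-7272513 for Mmp13 and chr9:7445572-7445821 for Mmp3.
Mmp14: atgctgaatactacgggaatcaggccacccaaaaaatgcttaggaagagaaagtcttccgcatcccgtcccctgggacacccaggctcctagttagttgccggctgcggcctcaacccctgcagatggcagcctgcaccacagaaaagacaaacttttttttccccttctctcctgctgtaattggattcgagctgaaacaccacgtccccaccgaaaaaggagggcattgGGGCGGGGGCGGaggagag
Adam10: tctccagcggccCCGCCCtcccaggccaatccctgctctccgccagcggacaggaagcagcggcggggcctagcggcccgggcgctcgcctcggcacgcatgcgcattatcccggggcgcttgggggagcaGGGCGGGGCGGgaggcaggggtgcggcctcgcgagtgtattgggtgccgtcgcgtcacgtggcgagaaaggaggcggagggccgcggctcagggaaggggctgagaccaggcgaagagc
Mmp13: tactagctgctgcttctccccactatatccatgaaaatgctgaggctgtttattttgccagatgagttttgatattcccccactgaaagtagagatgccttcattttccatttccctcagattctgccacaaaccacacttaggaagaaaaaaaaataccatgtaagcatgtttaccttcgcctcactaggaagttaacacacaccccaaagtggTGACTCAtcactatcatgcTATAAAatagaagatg
Mmp3: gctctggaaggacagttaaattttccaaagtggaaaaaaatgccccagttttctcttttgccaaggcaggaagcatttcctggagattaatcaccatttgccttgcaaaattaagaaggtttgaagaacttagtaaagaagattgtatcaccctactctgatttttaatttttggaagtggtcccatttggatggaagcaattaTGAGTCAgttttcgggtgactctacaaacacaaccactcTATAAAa
The Mmp14 stretch holds 2 matches to GGGCGG and the Adam10 stretch 3, of which an adjacent pair overlaps, and neither holds the other motifs. The Mmp13 and Mmp3 stretches each hold 1 match to TGAGTCA and 1 to TATAAA and none to GGGCGG.

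**Figure D5:**
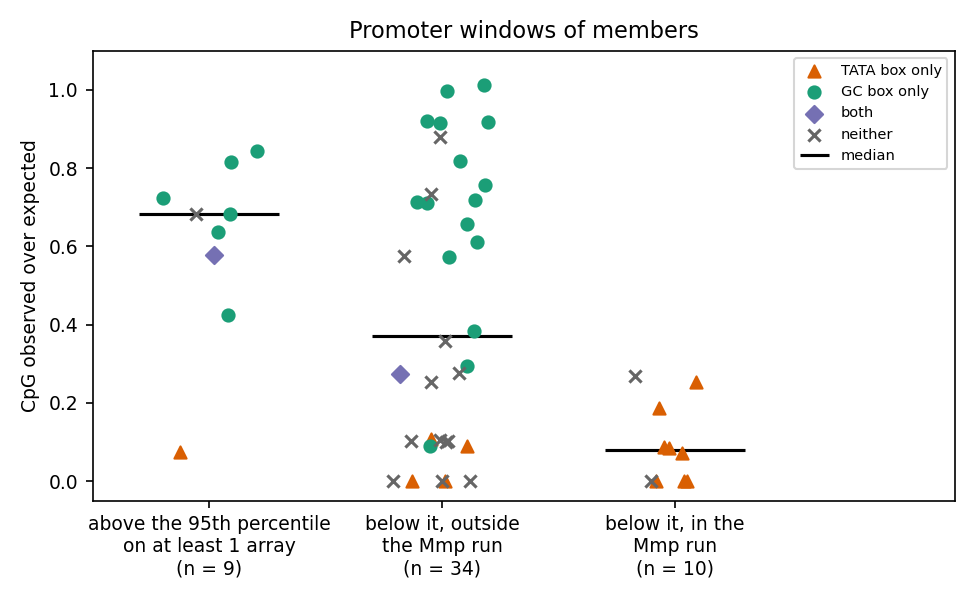
Observed over expected CpG ratio (vertical axis) of the promoter windows of 53 members, grouped as above 3.92 on at least 1 array (n = 9), at background outside the metalloproteinase run (n = 34) and in the run (n = 10); symbols show which of the TATA box and GC box motifs a window holds and bars are medians, 0.68, 0.37 and 0.078. All 10 windows of the run lie at or below 0.27 and none holds the GC box.

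Genes that act with these proteases were taken from lists of activators, partners, other metzincins, other inhibitors and substrates, 58 of 60 of them measured. Of 40 kept, 5 (12.5%) were ventral-high and 0 dorsal-high, beside 9.44% and 4.88% of all genes kept. Among activators, Bsg, the inducer of metalloproteinases called basigin, was at 6.26 in ventral and 5.87 in dorsal tissue. Furin, which removes the propeptide of membrane-type enzymes and ADAMs, was at 4.14 in ventral and 4.39 in dorsal tissue. Plau, the urokinase that generates plasmin, was at 4.60 in ventral and 4.24 in dorsal tissue. Of the 11 measured activators, 4 were above background on at least 1 array, and none of these was 2-fold apart. Among all genes above background, 17.7% were ventral-high and 8.46% dorsal-high. The other 7 activators were at background on both arrays and give no readable difference. Among ADAM partners, Itgb1, the integrin beta chain that many ADAMs bind, was at 7.59 in ventral and 6.49 in dorsal tissue, 2.14-fold higher in ventral tissue. The tetraspanins Tspan5 and Tspan17, which escort Adam10 to the surface, were above background on both arrays, Tspan5 at 4.55 in ventral and 3.96 in dorsal tissue and Tspan17 at 5.16 in ventral and 5.55 in dorsal tissue. Of the iRhom genes that mature Adam17, Rhbdf1 and Rhbdf2 were at background on both arrays.

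Of 6 inhibitors of other families, Cst3 alone was above background, and A2m, Spock1, Spock2, Spock3 and Tfpi2 were at background on both arrays. Cst3, the cysteine protease inhibitor cystatin C, was at 7.29 in ventral and 5.78 in dorsal tissue, 2.85-fold higher in ventral tissue. Of 10 other metzincins and procollagen processing genes, Pcolce alone was above background. Pcolce, which enhances procollagen C-propeptide removal by Bmp1, was at 5.13 in ventral and 5.88 in dorsal tissue, while Bmp1 and the other 8 were at background on both arrays. Among 21 substrates, 18 were kept, and 3 of these (16.7%) were ventral-high, beside 9.44% of all genes kept. Kitl, the membrane-bound form of which is shed by metalloproteases, was at 7.47 in ventral and 2.56 in dorsal tissue. Cdh2, N-cadherin, cut by Adam10, was at 5.49 in ventral and 3.66 in dorsal tissue. Cdh5, VE-cadherin, another target of Adam10, was at 6.64 in ventral and 4.22 in dorsal tissue. Cdh5 is also among the endothelial markers counted above. The bounds were at least 11.7-fold for Kitl and at least 2.97-fold for Cdh2, and Cdh5 was 5.34-fold higher, while the matrix substrates Fn1, Col1a1, Col1a2, Col3a1, Col4a1 and Vcan were all within 2-fold.

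Other matrix genes were counted in the same way. Above the mark on at least 1 array were 15 of 84 members, 17 of 44 collagen chains and 10 of 38 integrin, laminin and nidogen genes. The share over all genes was 28.7%. Among those kept, 0 of 36 collagen chains were ventral-high and 1 was dorsal-high. Of 22 kept integrin, laminin and nidogen genes, 2 were ventral-high and 0 dorsal-high. Over all genes kept, 9.44% were ventral-high and 4.88% dorsal-high. These shares were not tested against each other.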

How the data were processed

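The authors deposited log2 expression, with 1 value for each gene on each array. RMA in Affymetrix Expression Console, a method that corrects background, quantile-normalizes and summarises probes, is listed per the submitters' processing notes, with no version or probe annotation given. Per the labels' protocols, picogram amounts of RNA were amplified before hybridisation, which can lose or over-represent transcripts. Each array took its tissue from its title. Of 25429 features, 754 without a symbol were left out. Both columns had similar distributions, with medians of 3.02 in ventral and 3.15 in dorsal tissue. Differences were ventral minus dorsal on the log2 scale, over the whole table; with 1 array per tissue no test was run. The number of arrays limits the precision.

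The members, gene lists and naming rule were chosen with earlier results of these data known. Named were members above background and 2-fold apart, members above background on both arrays, 3 with high levels, those next to the threshold and 25 genes of interest, of which 24 were measured; members above background on 1 array were added later. The steps were tested on simulated data. Alternatives covered scaling, floor, fold threshold and averaging. Tools were statsmodels 0.14.6 (loess), pandas 2.3.3, numpy 2.4.6 and matplotlib 3.10.9 under Python 3.11.15.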

Additional observations from a re-analysis of the deposited data

How the results depend on the processing

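The count of ventral-high members was 3 as deposited and ran from 2 at a 3-fold threshold to 4 at a 1.5-fold threshold or with each column centred; no member passed in dorsal tissue under any of these settings. The median difference over the members kept was -0.084, and became 0.036 after a loess on mean level, 0.058 with the floor at the receptor genes' 95th percentile, 1.75 with the floor at their 99th percentile, where 4 members were left, and 0.13 as a mean; the cause of the loess shift was not tested, and the stricter floors keep fewer genes. Mmp14, Mmp16 and Adam4 stayed past 2-fold under quantile normalization, centring and loess. Of the 30 named members, Adam12 passed 2-fold with centring and Adamts5, at background on both arrays, passed it with loess, at 1.15. Adamts5 was below the floor for counting and is in none of the counts of kept members. The loess curve was fitted to kept genes only, so its value for Adamts5 is not a reliable difference. No paired analysis was possible because each tissue had 1 array, and for the same reason no array could be left out. Signal near background limits what can be read for 69 of the 84 members.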
